A study of Homo sapiens with 5 samples.

Results

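The 35 genes described here encode aminoacyl-tRNA synthetases, the enzymes that attach each amino acid to its own tRNA. They were taken by symbol from the expression tables of 5 RNA libraries, which together list 12497 genes, and all 35 were listed in every library. Of these, 20 encode enzymes of the cytosol and 15, whose symbols end in 2, encode enzymes of mitochondria. The libraries come from MDA-MB-231, a human triple-negative breast cancer cell line, with 1 library per group. The si-LY6E-DT library is described as cells transfected with a Smart Silencer against the long noncoding RNA LY6E-DT, and another, labelled si-HNRNPC, as cells transfected with an siRNA against the RNA-binding protein HNRNPC. The treatment protocol in the labels, read literally, pairs each target with the siRNA of the other, so which reagent each library received is not certain, and groups are named here by their titles. The si-NC library is the negative control of the LY6E-DT knockdown. The RIP HNRNPC library holds RNA recovered from MDA-MB-231 lysate with an anti-HNRNPC antibody on magnetic beads (RNA immunoprecipitation, RIP), and the RIP input library is from the lysate. The labels name an IgG in the RIP protocol, but no IgG library was analysed here. The stated purpose was to profile expression after both knockdowns and the RNA bound to HNRNPC.

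Each cell type needs synthetases in both compartments, because cytosolic ribosomes and mitochondrial ribosomes draw on separate pools of charged tRNA. Most amino acids have a cytosolic and a mitochondrial enzyme encoded by separate nuclear genes, whereas GARS and KARS each serve both compartments from a single gene. In the cytosol, DARS, EPRS, IARS, KARS, LARS, MARS, QARS and RARS are held in a multisynthetase complex. Many cytosolic synthetase genes are also targets of ATF4, the transcription factor of the amino acid starvation response. HNRNPC is a mainly nuclear protein that binds runs of U in RNA.

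The values are FPKM, fragments scaled for the length of a gene and the total of its library, which can be compared between genes because they are per length. With 1 library per group, nothing checks a difference against replicates, and neither an SD nor a p-value is given. Changes are log2((FPKM + 1)/(control FPKM + 1)). A gene is said to rise or fall, or to be depleted, when it moved at least 2-fold on that scale, which is a rule of size. The sequencing depth is unknown. The targeted gene HNRNPC had 48.8 FPKM in the library labelled si-HNRNPC and 52.2 in si-NC, a difference that 90.6% of tested genes matched or passed. It was at 40.1 in si-LY6E-DT, 58.4 in RIP HNRNPC and 67.4 in the RIP input. Its mRNA level thus goes against the label of the knockdown library, so directions below belong to the library labelled si-HNRNPC and not to a shown knockdown. LY6E-DT was not analysed here. The mesenchymal marker VIM lay between 157 and 538 FPKM and the epithelial marker EPCAM between 0.853 and 3.30 over the 5 libraries. The epithelial keratin KRT18 was at 2.73 in RIP HNRNPC and between 36.6 and 47.2 in the others, and PTPRC of leukocytes and PECAM1 of endothelium were not listed. In libraries from bulk cells, fewer cells that use a gene and less RNA per cell cannot be told apart.

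Cytosolic synthetase mRNAs were several times more abundant than mitochondrial ones in every library. The median over the 20 cytosolic genes was 35.7 FPKM in si-LY6E-DT, 27.1 in the library labelled si-HNRNPC, 31.6 in si-NC, 5.64 in RIP HNRNPC and 24.9 in the RIP input. The median over the 15 mitochondrial genes was 7.38 FPKM in si-LY6E-DT, 5.58 in the library labelled si-HNRNPC, 6.22 in si-NC, 1.62 in RIP HNRNPC and 4.32 in the RIP input. The ratio of the cytosolic to the mitochondrial median was thus between 3.48, in RIP HNRNPC, and 5.77, in the RIP input. All 20 cytosolic genes were above the median of all listed genes in the 4 libraries other than RIP HNRNPC, where 13 were. Of the mitochondrial genes 12 exceeded it in both si-LY6E-DT and si-NC, 6 in the library labelled si-HNRNPC and in the RIP input, and 4 in RIP HNRNPC. Together the cytosolic genes took 0.407% of the FPKM sum in si-LY6E-DT, 0.243% in the library labelled si-HNRNPC, 0.392% in si-NC, 0.092% in RIP HNRNPC and 0.208% in the RIP input.

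**Figure D1:**
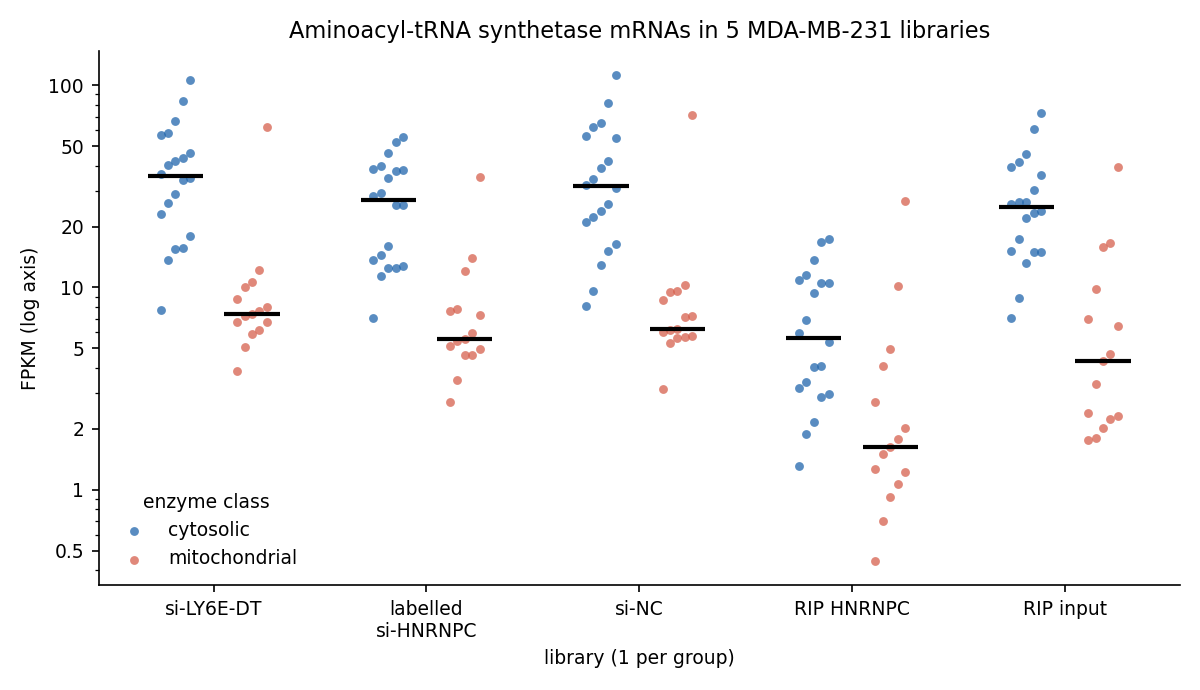
FPKM (log axis) of the 20 cytosolic (blue) and 15 mitochondrial (red) synthetase genes in each of the 5 libraries; each point is a gene and the black line is the median of its class. The cytosolic medians lie between 5.64 and 35.7 FPKM and the mitochondrial medians between 1.62 and 7.38, and the highest red point in every library is IARS2.

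TARS, the threonyl-tRNA synthetase (ENSG00000113407.13_3; chromosome 5, 33440696 to 33469539, plus strand, GRCh38), was the most abundant cytosolic member in 3 libraries. Its FPKM were 106 in si-LY6E-DT, 46.3 in the library labelled si-HNRNPC, 112 in si-NC, 10.9 in RIP HNRNPC and 72.9 in the RIP input. GARS, for glycine, followed in both LY6E-DT libraries with 83.6 FPKM in si-LY6E-DT and 81.8 for si-NC. WARS, the tryptophanyl-tRNA synthetase known for its induction by interferon gamma, was the least abundant cytosolic member in si-LY6E-DT (7.75 FPKM), in the library labelled si-HNRNPC (7.09) and in si-NC (8.14). In both RIP libraries the lowest was HARS, for histidine, at 1.31 FPKM in RIP HNRNPC and 7.09 in the RIP input.

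The mitochondrial class held a single abundant member. IARS2, the mitochondrial isoleucyl-tRNA synthetase (ENSG00000067704.9_2; chromosome 1, 220094102 to 220148041, plus strand, GRCh38), was at 62.2 FPKM in si-LY6E-DT, 35.2 in the library labelled si-HNRNPC, 71.4 in si-NC, 26.6 in RIP HNRNPC and 39.3 in the RIP input. The next mitochondrial gene reached 12.2 FPKM in si-LY6E-DT (AARS2, alanine), 13.9 in the library labelled si-HNRNPC (YARS2, tyrosine), 10.3 in si-NC (HARS2), 10.1 in RIP HNRNPC (MARS2, methionine) and 16.7 in the RIP input (YARS2). Of 13 amino acids with a member named for each compartment, the cytosolic gene was the higher for 12 in si-LY6E-DT and si-NC and for 13 in the library labelled si-HNRNPC. It was the higher for 9 in RIP HNRNPC and 11 in the RIP input. Isoleucine was the exception, with IARS2 at 1.07 times the level of IARS in si-LY6E-DT and 1.14 times in si-NC. YARS2 joined it in the RIP input, and HARS2, MARS2 and YARS2 did in RIP HNRNPC.

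Enzymes that work as fixed assemblies did not have equal mRNA levels. FARSA and FARSB encode the alpha and beta subunits of the cytosolic phenylalanyl-tRNA synthetase, which pair in equal number. FARSA was at 40.1 FPKM in si-LY6E-DT, 55.2 in the library labelled si-HNRNPC, 39.0 in si-NC, 2.89 in RIP HNRNPC and 39.5 in the RIP input. FARSB was at 15.7 FPKM in si-LY6E-DT, 12.5 in the library labelled si-HNRNPC, 16.5 in si-NC, 4.11 in RIP HNRNPC and 25.9 in the RIP input. FARSA was therefore the higher in 4 libraries, by 1.53 to 4.41 times, and the lower in RIP HNRNPC. The 8 synthetases of the multisynthetase complex ranged in si-NC from 15.2 FPKM (MARS) to 65.02 (RARS), and in the RIP input from 13.2 (MARS) to 60.4 (DARS).

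The comparison of the HNRNPC immunoprecipitate with its input asks which mRNAs were recovered with the protein. Most cytosolic synthetase mRNAs were depleted in the immunoprecipitate, while most mitochondrial ones did not reach 2-fold. Of the 20 cytosolic members 18 were depleted and none was enriched, with a median log2 change of −1.88. Of the 15 mitochondrial members 5 were depleted and none was enriched, with a median of −0.55. Over all 10284 genes tested the median was −0.34, and 36.9% were depleted and 24.2% enriched at least 2-fold. Among genes with a mean of at least 5 FPKM, 39% were depleted. The pseudocount holds back the change of low genes, so plain ratios were also counted. By the plain FPKM ratio 18 cytosolic and 7 mitochondrial members were at least 2-fold lower in the immunoprecipitate, against 41.5% of all genes tested. The median plain ratio of RIP HNRNPC to input was 0.229 for cytosolic and 0.525 for mitochondrial members, against 0.740 for all genes tested.

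FARSA (ENSG00000179115.10_2; chromosome 19, 12922479 to 12934037, minus strand, GRCh38) changed most, at 2.89 FPKM in RIP HNRNPC against 39.5 in the input, a log2 change of −3.38. TARS was at 10.9 FPKM against 72.9 in the input (−2.64). KARS, for lysine, was at 4.05 FPKM in RIP HNRNPC against 30.3 in the input (−2.63). FARSA and TARS differ in length and composition, with a transcript of 1814 bases and 61.4% GC for FARSA and one of 4314 bases and 43.6% GC for TARS.

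LARS and IARS were the cytosolic exceptions. LARS, for leucine (ENSG00000133706.17_2; chromosome 5, 146113038 to 146182660, minus strand, GRCh38), was at 13.7 FPKM in RIP HNRNPC against 15.1 in the input (−0.14). IARS, for isoleucine (ENSG00000196305.17_3; chromosome 9, 92210207 to 92293756, minus strand, GRCh38), was at 17.4 FPKM in RIP HNRNPC against 23.4 in the input (−0.40). Both encode long enzymes of the multisynthetase complex, with 3528 coding bases in LARS and 3786 in IARS. EPRS, of the same complex, was longer at 4536 coding bases and was depleted (−1.84). The other 6 synthetases of that complex were depleted, as were all 12 cytosolic members outside it. The depletion of the next in order was near the threshold, for MARS at 5.35 FPKM against 13.2 in the input (−1.16), WARS at 3.40 against 8.87 (−1.17), SARS, for serine, at 10.6 against 26.6 (−1.26) and NARS, for asparagine, at 10.5 against 26.6 (−1.26).

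Among mitochondrial members MARS2 went the other way. MARS2 (ENSG00000247626.4_3; chromosome 2, 197705369 to 197708387, plus strand, GRCh38) was at 10.1 FPKM in RIP HNRNPC against 4.69 in the input, 2.16 times higher by the plain ratio and 0.97 on the log2 scale, just under the threshold. WARS2 was level, at 1.79 FPKM in RIP HNRNPC and 1.80 in the input, and EARS2, for glutamate, was at 1.27 against 1.76. The depleted members were FARS2, for phenylalanine (1.23 FPKM against 9.82 in the input, −2.28), YARS2 (2.73 against 16.7, −2.25), SARS2 (0.445 against 4.32, −1.88), TARS2 (1.497 against 6.98, −1.68) and RARS2, for arginine (4.97 against 15.9, −1.505). AARS2 lay at the threshold, at 0.699 FPKM against 2.39 (−0.998), and was not counted. SARS2 shares 71.9% of its 50-base sequences with an overlapping gene model on the same strand and is uncertain, as are VARS2 and HARS2, which also share exon bases with a neighbour on the same strand.

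**Figure D2:**
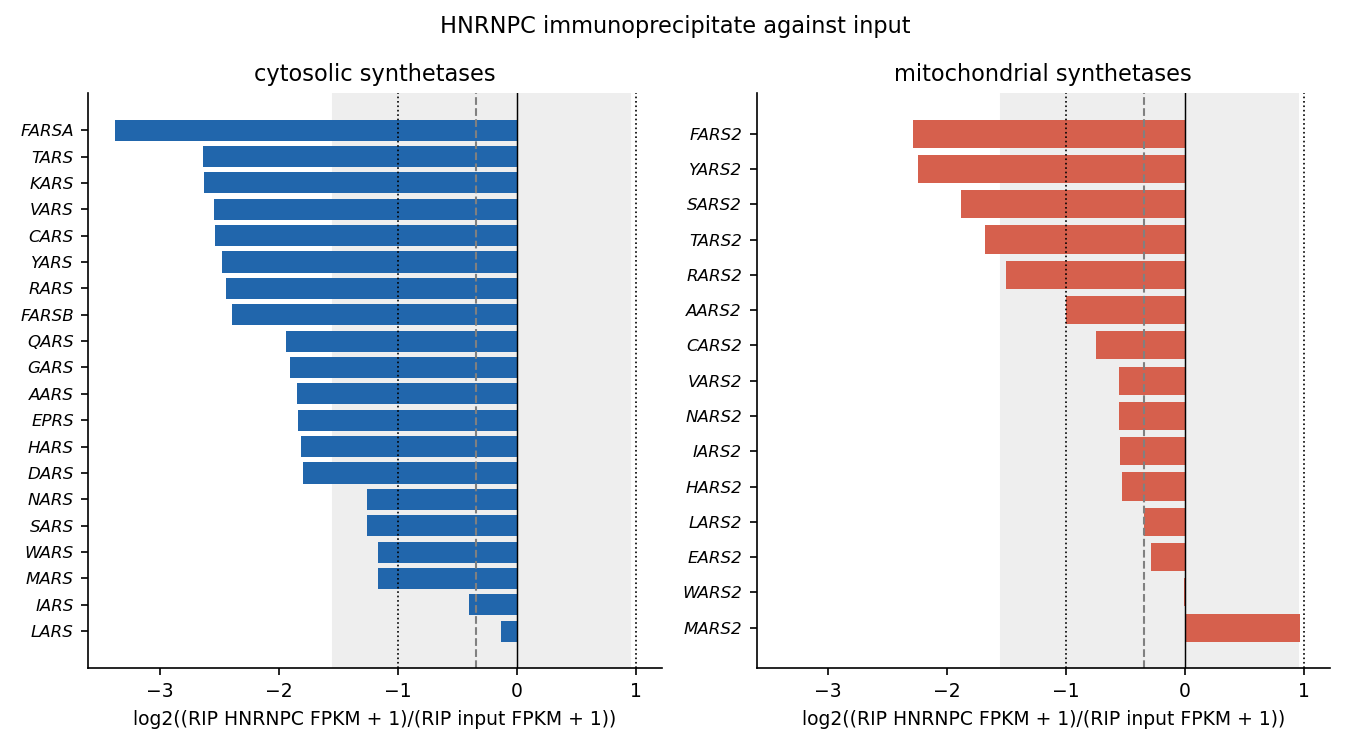
Log2 change of each synthetase gene in RIP HNRNPC against the RIP input, on FPKM + 1, cytosolic members left and mitochondrial members right. The grey band and dashed line are the middle 50% and the median (−0.34) of all 10284 genes tested, and the dotted lines mark 2-fold; 18 of 20 blue bars and 5 of 15 red bars pass the lower one.

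The transcripts of the synthetases are poor in the U runs that HNRNPC binds. A median of 0.859 runs of at least 5 U per kb was found in the 35 members, against 1.80 over the 10223 tested genes with an annotated coding transcript. The median was 0.896 in cytosolic and 0.591 in mitochondrial members. Introns were not included. The 3′ UTRs of the members were also short, with a median of 310 bases in cytosolic and 660 in mitochondrial members, against 1109 over the tested genes. Over all these genes the change in RIP HNRNPC increased with the density of U runs (Spearman's rho 0.62) and with the length of the 3′ UTR (rho 0.58). It also increased with transcript length (rho 0.56) and decreased with GC content (rho −0.55), and the separate parts of these features were not tested. Over the 35 members rho was 0.16 with U runs, 0.44 with the 3′ UTR length, 0.31 with transcript length and −0.22 with GC content. In the same order it was 0.17, 0.19, 0.25 and −0.30 over the 20 cytosolic members. Over the 15 mitochondrial members it was 0.46, 0.73, 0.62 and −0.44. These are descriptions across genes, which share 1 pair of libraries and are not independent.

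Set against genes with like U-run density, the cytosolic median was lower in each group that held cytosolic members. The difference was smallest where U runs were fewest. The groups were not matched for 3′ UTR length, transcript length or GC content, and the part of these was not tested. With under 1 run per kb, 71.3% of 3204 tested genes were depleted and the median log2 change was −1.59, against −1.92 for the 12 cytosolic and −1.25 for the 8 mitochondrial members there. With 1 to under 2 runs the median was −0.55 over all genes, −1.84 for 5 cytosolic and −0.45 for 6 mitochondrial members. With 2 to under 3 runs it was 0.36 over all genes and −1.79 for 3 cytosolic members. Those 3 were DARS, FARSB and LARS. DARS, for aspartate, had 2.97 runs per kb and was at 16.7 FPKM in RIP HNRNPC against 60.4 in the input (−1.79). FARSB had 2.38 runs per kb and was at 4.11 against 25.9 (−2.40). LARS had 2.73 runs per kb and was not depleted (−0.14). MARS2 had 1.99 runs per kb and WARS2 had 2.50. No member had 3 or more runs per kb, the group with a median of 1.16 over all genes.

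**Figure D3:**
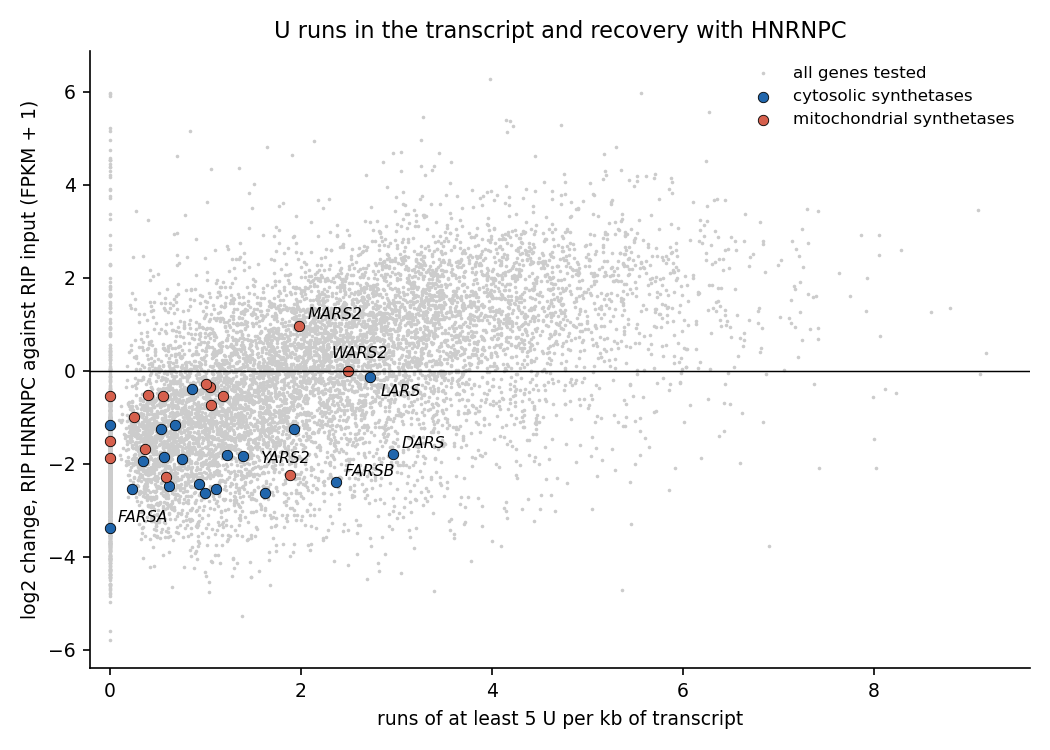
Log2 change in RIP HNRNPC against the RIP input, on FPKM + 1, plotted against runs of at least 5 U per kb of the annotated transcript, for all tested genes (grey) and for cytosolic (blue) and mitochondrial (red) synthetases. The grey cloud climbs to the right (rho 0.62), all 35 members lie under 3 runs per kb, and DARS (−1.79) and FARSB (−2.40) lie below the median of genes with 2 to under 3 runs (0.36).

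Of 24 other tested genes of aminoacylation and tRNA handling 10 were depleted and 2 enriched, a depleted share near the 36.9% of all genes; 24.2% of all genes were enriched. The enriched ones were XPOT, which exports tRNA from the nucleus (104 FPKM in RIP HNRNPC against 24.1 in the input), and SEPSECS, which makes selenocysteine on its tRNA (7.60 against 0.942). SSB, the La protein that binds new tRNA transcripts, was at 3.67 FPKM against 80.6 in the input (−4.13). The complex scaffold AIMP2 was at 3.29 against 23.1 (−2.49). Of 11 listed translation factors, only some of which bring charged tRNA to ribosomes, 9 were depleted, beside the same 36.9%. Among them were EEF1B2 (13.5 FPKM against 239) and the mitochondrial factor TUFM (14.8 against 170). GFM1 (7.17 against 6.07) and GFM2 (7.29 against 4.86) were not depleted. The amino acid starvation response had 13 of 26 tested genes depleted and 6 enriched, with a median log2 change of −0.79. The shares of all genes were the same 36.9% and 24.2%. Amino acid transporters of that list went both ways. SLC7A11, the cystine carrier, was at 127 FPKM in RIP HNRNPC against 7.18 in the input, SLC38A2 at 284 against 27.5 and SLC7A1 at 74.1 against 22.8. SLC1A5, a glutamine carrier, was at 8.22 against 44.7 and SLC3A2 at 8.40 against 26.6. FPKM are shares of a total: mitochondrially encoded mRNAs took 9.05% of it in RIP HNRNPC and 29.8% in the input, and their part in these changes was not tested. Rescaling without those, ribosomal protein and the 20 highest genes gave medians of −1.65 for cytosolic and −0.41 for mitochondrial members, against −0.12 over all genes.

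The library titled si-LY6E-DT was set against si-NC, a pair meant to show how mRNA levels differ with LY6E-DT targeted. No synthetase gene reached 2-fold in either direction, and none reached 1.5-fold on the FPKM + 1 scale, though YARS2 did by the plain ratio (1.56). Among the 10473 genes tested, 1.66% were past 2-fold upward and 0.888% downward, so a count of 0 among 35 is close to the background, and 9.86% moved at least 1.5-fold in either direction. The median log2 change was 0.06 for cytosolic members and 0.10 for mitochondrial members, against 0.04 over all genes. The highest values were YARS2 at 8.73 FPKM in si-LY6E-DT against 5.60 in si-NC (0.56), AARS at 34.9 against 23.8 (0.54), CARS, for cysteine, at 13.8 against 9.63 (0.47) and VARS, for valine, at 43.4 against 31.2 (0.46). The lowest were RARS at 45.98 FPKM in si-LY6E-DT against 65.02 in si-NC (−0.49), MARS2 at 6.76 against 8.67 (−0.32), LARS2 at 5.92 against 7.14 (−0.23) and IARS2 at 62.2 against 71.4 (−0.20). TARS2 was at 7.63 against 5.74 (0.36) and NARS2, for asparagine, at 7.38 against 5.71 (0.32). In all, 26 members were above 0 and 9 below, and the median over all genes was itself above 0 (0.04). The share of all genes above 0 was not counted.

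Of 26 tested genes of the amino acid starvation response 6 rose and none fell in the same pair of libraries, beside 1.66% of all genes rising and 0.888% falling, and the median was 0.30. The 6 that rose were DDIT3 (23.1 FPKM in si-LY6E-DT against 5.31 in si-NC), TRIB3 (14.4 against 3.97), SESN2 (11.98 against 3.42), PPP1R15A (126 against 54.6), SLC1A5 (59.8 against 26.5), and CHAC1, which degrades glutathione (5.53 against 2.14). The other 20 did not reach 2-fold. Exons of MARS overlap those of DDIT3 and ARHGAP9 on the other strand, by up to 519 bases. ATF4 itself was at 136 FPKM against 119 in si-NC. The 11 cytosolic synthetases on a list of known ATF4 targets had a median of 0.04, and the 9 not on it a median of 0.08. Of genes for aminoacylation and tRNA handling, none of 26 tested reached 2-fold.

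The core of the site at which ATF4 binds with C/EBP proteins, TGATGNAA, was searched on both strands of the RefSeq promoter windows (GRCh38.p14). These run from 250 bases before to 50 after an annotated start, and some genes have more than 1 start. Windows were found for 29 of the 35 members. The site was in 7 of 16 cytosolic members with a window and in 1 of 13 mitochondrial ones, against 3.62% of all 35116 windows and 4.46% of the 27305 genes that have at least 1. All 7 cytosolic ones are on the ATF4 list, where they are 7 of 10 with a window. The sites are shown with the bases around them because they are the members' windows that hold a match; capitals mark the match, each on the strand that reads TGATGNAA.
AARS: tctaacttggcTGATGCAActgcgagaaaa
CARS: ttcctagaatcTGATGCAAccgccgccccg
GARS: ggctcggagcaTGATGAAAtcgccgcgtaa
IARS: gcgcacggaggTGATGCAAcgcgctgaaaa
MARS: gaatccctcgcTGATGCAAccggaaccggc
NARS: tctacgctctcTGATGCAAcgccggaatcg
TARS: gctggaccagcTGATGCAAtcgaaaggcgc
YARS2: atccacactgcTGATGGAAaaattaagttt

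The printed stretches are chr16:70289675-70289704 (plus strand) for AARS, chr11:3057407-3057436 (plus) for CARS, chr7:30594834-30594863 (minus) for GARS and chr9:92293692-92293721 (plus) for IARS. They are chr12:57488053-57488082 (minus) for MARS, chr18:57621804-57621833 (minus) for NARS, chr5:33440956-33440985 (minus) for TARS and chr12:32756076-32756105 (minus) for YARS2. Positions are counted from the annotated start whose window held the site. In CARS, GARS, IARS, MARS, NARS and TARS the site lay within 33 bases of that start. It began at position −187 in AARS and −197 in YARS2. CARS, GARS and TARS each also had a window at another start, which held no such site. The matched letters read TGATGCAA in 6 of the 8. The 7 cytosolic genes with the site had a median log2 change of 0.08 in si-LY6E-DT against si-NC, and the 9 with a window and no site had 0.04. Within the 7, AARS (0.54) and CARS (0.47) were highest and TARS (−0.08) and IARS (−0.11) lowest. A match in letters is not a measured binding site.

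The E-box CACGTG, the site of MYC and its partner MAX, was in the windows of 4 of the 29 members, IARS, CARS2, EARS2 and MARS2, against 7.26% of all windows and 8.77% of genes, and overlapped no TGATGNAA site. MYC was at 3.22 FPKM in si-LY6E-DT against 34.9 in si-NC. It was also low, at 1.496, in the RIP input, but at 34.3 in RIP HNRNPC and 45.8 in the library labelled si-HNRNPC. In si-LY6E-DT against si-NC IARS was at 57.9 FPKM against 62.4 (−0.11), CARS2 at 3.89 against 3.15 (0.23), EARS2 at 5.10 against 5.30 (−0.05) and MARS2 at 6.76 against 8.67 (−0.32).

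The library labelled si-HNRNPC was set beside si-NC to ask how targeting HNRNPC altered mRNA levels. Cytosolic synthetases tended to be lower, with 4 of 20 falling at least 2-fold and none rising. Of mitochondrial members 1 of 15 rose and none fell. Over the 10247 genes tested 12.4% rose and 9.44% fell. The median log2 change was −0.40 for cytosolic and −0.31 for mitochondrial members, against 0.04 over all genes, and 27 of the 35 members were below 0. Rescaled without the most abundant genes as above, it was −0.59 for cytosolic and −0.48 for mitochondrial members, against −0.12 over all genes. TARS had 46.3 FPKM in that library and 112 in si-NC (−1.26). LARS was at 13.6 FPKM against 32.0 (−1.17), RARS at 28.5 against 65.02 (−1.16) and GARS at 38.1 against 81.8 (−1.08). IARS2 stopped just short, at 35.2 against 71.4 (−0.999), followed in its class by RARS2 at 5.11 against 9.55 (−0.79) and EARS2 at 2.71 against 5.30 (−0.77).

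Members at the other end were few. YARS2 (ENSG00000139131.12_3; chromosome 12, 32727490 to 32755902, minus strand, GRCh38) had 13.9 FPKM in the library labelled si-HNRNPC and 5.60 in si-NC, a rise of 1.18. FARS2 was at 12.1 against 7.26 (0.66) and CARS2 at 5.44 against 3.15 (0.63). The highest cytosolic values were AARS at 34.96 FPKM against 23.8 (0.54), KARS at 37.8 against 26.0 (0.52) and FARSA at 55.2 against 39.0 (0.49). The median was −0.66 over the 8 synthetases of the complex and −0.14 over the 12 other cytosolic members. Among related genes TRNT1, which adds the CCA end to tRNA, had 1.40 FPKM there and 5.29 in si-NC, a fall past 2-fold. LAGE3, of the tRNA-modifying KEOPS complex, was at 43.0 against 12.7, and TUFM was at 190 against 73.4. Of the 26 starvation response genes tested 6 rose and 2 fell, beside 12.4% and 9.44% of all genes, with a median of 0.19.

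These changes depended on the control. With the RIP input, which has no knockdown in its label, as control, none of those 4 cytosolic genes reached 2-fold: TARS was at 72.9 FPKM in that input (−0.64), RARS at 41.8 (−0.54), GARS at 45.7 (−0.26) and LARS at 15.1 (−0.14). YARS2, at 16.7 FPKM in the input, turned to −0.24. Other members passed 2-fold there, AARS2 (1.03) and HARS2 (1.02) as higher and DARS (−1.20) and RARS2 (−1.47) as lower in the library labelled si-HNRNPC, against 9.11% of 10185 genes higher and 4.03% lower. The medians were 0.01 for cytosolic and 0.42 for mitochondrial members, against 0.15 over all genes. The gap between the complex and the other cytosolic members was no longer seen, with medians of −0.02 and 0.01. The library labelled si-HNRNPC serves in both of these comparisons.

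The control library and the RIP input, both from MDA-MB-231 cells with no knockdown named, differed in the synthetases too. In si-NC 3 of 20 cytosolic and 6 of 15 mitochondrial members were at least 2-fold higher than in the RIP input, and 1 mitochondrial member was lower. Of 10264 genes 14.2% were higher and 10.4% lower. The higher cytosolic genes were IARS (62.4 FPKM in si-NC against 23.4 in the input, 1.38), SARS (56.1 against 26.6, 1.05) and LARS (32.0 against 15.1, 1.03). The higher mitochondrial genes were AARS2 (9.63 against 2.39, 1.65), HARS2 (10.3 against 3.35, 1.37), WARS2 (6.17 against 1.80, 1.36), LARS2 (7.14 against 2.32, 1.29), VARS2 (6.01 against 2.03, 1.21) and EARS2 (5.30 against 1.76, 1.19). YARS2 was lower, at 5.60 FPKM in si-NC against 16.7 in the input (−1.42). The next lowest values were CARS at 9.63 against 17.4 (−0.79), RARS2 at 9.55 against 15.9 (−0.68), FARSB at 16.5 against 25.9 (−0.62), DARS at 42.1 against 60.4 (−0.51) and FARS2 at 7.26 against 9.82 (−0.39). The medians were 0.47 for cytosolic and 0.77 for mitochondrial members, against 0.11 over all genes. Mitochondrially encoded mRNAs took 7.20% of the FPKM sum in si-NC and 29.8% in the input, and culture or preparation cannot be told apart from the group. With a mean of at least 5 FPKM required, the mitochondrial median was 0.14.

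HARS and HARS2 form a head-to-head pair on chromosome 5. Their promoter windows share 184 bases, and their exons overlap on opposite strands by up to 437 bases. HARS was at 15.6 FPKM in si-LY6E-DT, 12.4 in the library labelled si-HNRNPC, 12.97 in si-NC, 1.31 in RIP HNRNPC and 7.09 in the RIP input. HARS2 was at 10.6 FPKM in si-LY6E-DT, 7.82 in the library labelled si-HNRNPC, 10.3 in si-NC, 2.03 in RIP HNRNPC and 3.35 in the RIP input. HARS was thus the higher in the 4 libraries other than RIP HNRNPC, and reads from the overlap cannot be assigned without strand, whose use is not given in the sources used here.

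**Figure D4:**
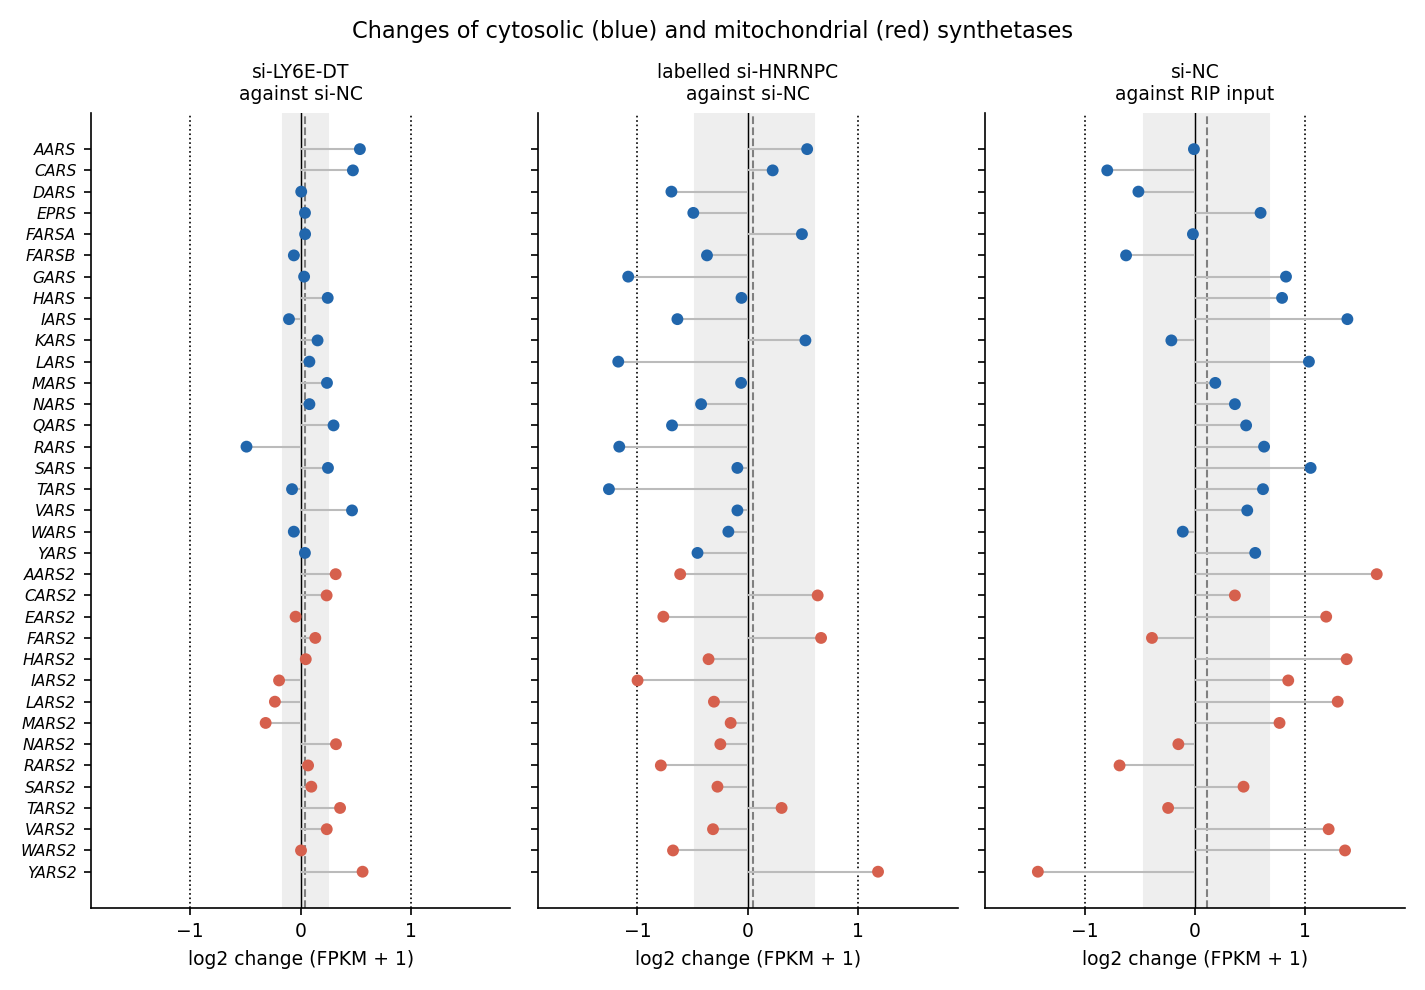
Log2 change (FPKM + 1) of each cytosolic (blue) and mitochondrial (red) synthetase in 3 comparisons; the grey band and dashed line are the middle 50% and the median of all genes tested in that comparison, and dotted lines mark 2-fold. No point passes 2-fold in si-LY6E-DT against si-NC, 4 blue points pass it on the left and 1 red point on the right in the library labelled si-HNRNPC (set against si-NC), and 3 blue and 6 red points pass it on the right and 1 red point on the left in si-NC against the RIP input.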

How the data were processed

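Gene-level FPKM were used as deposited by the authors, 1 table per library, with the unit named per the file headers. Per the submitters' processing notes, the build was GRCh37 and the tools included HISAT2 2.1.0, StringTie 1.3.3, cutadapt 1.17 and FastQC 0.11.7; roles and settings are not given in the sources used here. FPKM hold shares of a library's total, and the depth is unknown, so no counting interval is given.

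Libraries were joined on gene ID. Log2 changes used a pseudocount of 1 where both libraries list the gene and its mean is at least 1 FPKM; all 35 members passed in every comparison. With 1 library per group no test was made. The arithmetic was checked on known changes put into the si-NC values, which does not measure how reliable a change is. Transcript length, GC content, U runs and overlaps came from GENCODE 29 (GRCh38), with 1 principal coding transcript per gene; no coordinates were converted. Of the members 28 had no 50-base stretch in another gene. Named genes are those past 2-fold, the 3 highest and lowest of each class per comparison, the extremes in level, up to 8 related genes past 2-fold per comparison, HNRNPC and ATF4; others were chosen after their values were seen. Members and lists were chosen with earlier results of these data known. Alternatives were other pseudocounts, filters, scalings, thresholds and controls, and, added after the data were seen, leaving out members that share exons. Computations used pandas 2.3.3 and numpy 2.4.6 in Python 3.11.15, and matplotlib 3.10.9 drew the figures.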

Additional observations from a re-analysis of the deposited data

How the results depend on the processing

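No paired analysis was possible because each group had 1 library, and none could be left out. A median was taken to move at 0.585 on the log2 scale and a count or ratio at 1.5 times. In RIP HNRNPC against its input, the cytosolic median stayed between −2.10 and −1.52 and the cytosolic count past 2-fold between 14 and 18 under all alternatives run. The mitochondrial count, 5 as reported, was 8 with a pseudocount of 0.1 and at 1.5-fold, and 3 with a pseudocount of 5. It was also 3 with a mean of at least 5 FPKM, where fewer mitochondrial members were tested. The mitochondrial median was then −1.03, against −0.55 as reported. The cytosolic minus mitochondrial difference narrowed from −1.32 to −0.88. For the library labelled si-HNRNPC, set against si-NC, 5 members passed as reported (4 cytosolic, 1 mitochondrial). With a pseudocount of 5 there were 3 (mitochondrial 0) and at 1.5-fold 15 (7 cytosolic, 8 mitochondrial; 46.2% of all genes). The mitochondrial count was 2 with a pseudocount of 0.1, centring on the median and quantile normalization. With the RIP input as control 1 cytosolic and 3 mitochondrial members passed, the mitochondrial median was 0.42 and YARS2 turned to −0.24. In si-NC against the RIP input, 10 members passed as reported (3 cytosolic, 7 mitochondrial). With a pseudocount of 5 there were 2 (1 of each class) and at 1.5-fold 20 (10 cytosolic; 48.8% of all genes). Centring left 1 cytosolic member. With a mean of at least 5 FPKM there were 6 (3 mitochondrial), the mitochondrial median was 0.14 and the cytosolic minus mitochondrial difference turned from −0.30 to 0.32; fewer, more abundant genes were then tested. The cause of the other moves was not tested. Leaving out members that share exons, added after the data were seen, moved none of these values. Besides the turn of YARS2 given above, single members changed side of the threshold in 46 cases, 32 by dropping under it and 14 by passing it. Depth is unknown and limits the low mitochondrial genes most.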
